A study of Homo sapiens with 35 samples.

Results

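The genes described are 10 members of the TNF receptor family, TNFRSF1A, TNFRSF1B, LTBR, FAS, TNFRSF10A, TNFRSF10B, TNFRSF11B, TNFRSF9, CD40 and TNFRSF21. They were chosen by gene symbol, and each symbol matched 1 row of an RNA-seq count table of 62696 rows. All 10 were among the 16879 genes with enough counts to be tested. The cells were U-87 MG, a human line derived from glioblastoma, and TWEAK is a TNF-like cytokine. The RNA-seq groups, with 3 libraries each, were untreated control cells and 3 groups given TWEAK at 10 ng/ml, which were control cells, cells with a CRISPR knockdown (KD) of ETS1 and cells with a CRISPR KD of NFKB2. The labels give a TWEAK exposure of 48 h, with the ligand renewed once, after a period in serum-reduced medium. The KDs were made by lentiviral delivery of Cas9 and a guide RNA, the labels of the RNA-seq libraries do not name the guide, and no untreated KD cells were measured. ChIP-seq peak lists, with 2 libraries in each group, were used for p52, ETS1 and RNA Pol II around the same genes. The study's methods call the RNA-seq replicates biological, and do not say how they were kept apart.

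Receptors of this family bind trimeric ligands at the cell surface. They can signal through adaptor proteins of the TRAF group, which activate NF-κB and MAP kinases. Those that carry a death domain can signal through FADD and caspases to apoptosis, and these routes are not exclusive. LTBR and CD40 are classical activators of non-canonical NF-κB signalling, where the kinase NIK (the product of MAP3K14) leads to processing of p100, the product of NFKB2, to p52. TNFRSF12A, the receptor of TWEAK itself, signals through the same pathway. p52 acts as a transcription factor that binds κB sequences, and ETS1 is a transcription factor that binds sequences with a GGAA core.

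The genes lie on 6 chromosomes of hg38. TNFRSF1A (chr12:6328757-6342114, minus strand) and LTBR (chr12:6375045-6391571, plus strand) are near neighbours. TNFRSF1B (chr1:12166991-12209228, plus strand) and TNFRSF9 (chr1:7915871-7943165, minus strand, ENSG00000049249) are on chromosome 1. TNFRSF10A (chr8:23190452-23225102), TNFRSF10B (chr8:23020133-23069031) and TNFRSF11B (chr8:118923557-118951885) are on the minus strand of chromosome 8. FAS (chr10:88953813-89029605, plus strand), CD40 (chr20:46118271-46129863, plus strand, ENSG00000101017) and TNFRSF21 (chr6:47231532-47309905, minus strand) are each alone.

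Total counts per RNA-seq library lay between 28384201 and 40192606. In TWEAK-treated cells ETS1 fell in ETS1 KD libraries by 1.23 on the log2 scale (SE 0.15, edgeR adjusted p = 0.00112), and NFKB2 fell in NFKB2 KD libraries by 1.67 (SE 0.18, edgeR adjusted p = 0.00339). The KDs were therefore partial at the RNA level. Of 8 glioma markers, VIM, CD44, NES and SOX9 were expressed in every group. By contrast, the mean of GFAP was at most 0.259 CPM (counts scaled to a fixed library size) and that of S100B at most 0.139 CPM. The mean of AQP4 was at most 0.0098 CPM, and the means of OLIG2 lay between 0.673 and 1.51 CPM. The leukocyte markers PTPRC and CD3E, the endothelial marker CDH5 and the epithelial marker CDH1 did not exceed 0.122 CPM in any library. Other markers of these cell types were detected at low levels, with maxima of 0.502 CPM for CD14, 1.58 for PECAM1, 3.91 for VWF, 2.05 for EPCAM and 1.88 for KRT8.

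The stretches of the hg38 reference printed here were chosen because they lie under p52 peaks at or near TNFRSF9 and FAS. The first holds the summits closest to the start of TNFRSF9, the second is a p52 site downstream of the same gene, and the third is a p52 site upstream of FAS that has no κB match. Capitals mark matches to the κB consensus on either strand, and the strand of the receptor gene is shown.
TNFRSF9 start-site p52 site, chr1:7940894-7940923, minus strand: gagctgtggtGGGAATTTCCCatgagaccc
TNFRSF9 downstream p52 site, chr1:7897269-7897388, minus strand: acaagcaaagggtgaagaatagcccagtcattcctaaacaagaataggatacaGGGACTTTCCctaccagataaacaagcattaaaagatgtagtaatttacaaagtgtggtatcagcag
FAS upstream p52 site, chr10:88990109-88990228, plus strand: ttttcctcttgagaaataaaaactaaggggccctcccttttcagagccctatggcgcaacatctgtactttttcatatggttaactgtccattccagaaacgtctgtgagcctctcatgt

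The levels of the receptors in untreated control cells spanned a wide range when expressed per length of the canonical transcript (RPKM, read counts scaled to transcript length and library size). TNFRSF1A, the death domain receptor of TNF, was highest at 52.9 ± 6.38 RPKM (SD, n = 3), followed by TNFRSF10B, a death receptor of TRAIL, at 36.5 ± 4.23 RPKM. TNFRSF21, another receptor with a death domain, was at 12.8 ± 3.01 RPKM and TNFRSF1B, the TNF receptor without a death domain, at 11.7 ± 1.86 RPKM, and the ranges of these neighbours overlapped. FAS, the receptor of FAS ligand, was at 9.11 ± 1.96 RPKM and LTBR, the lymphotoxin β receptor, at 5.16 ± 0.960 RPKM. CD40 and TNFRSF11B, which encodes the secreted decoy receptor osteoprotegerin, were at 3.68 ± 0.515 and 2.85 ± 0.259 RPKM, with overlapping ranges. TNFRSF9, a costimulatory receptor best known from activated T cells, was at 0.248 ± 0.0218 RPKM, and TNFRSF10A, the other death receptor of TRAIL, was lowest at 0.118 ± 0.0460 RPKM. Between 3 and 14 reads were counted for TNFRSF10A in a library, so differences in it are barely resolved at this depth. The order of the receptors depends on the length used. Per length of all annotated exons, the mean over the 12 libraries was 34.3 RPKM for TNFRSF10B and 26.8 RPKM for TNFRSF1A. On that scale FAS, at 1.56 RPKM, lay below TNFRSF21 at 10.2 RPKM and TNFRSF11B at 1.71 RPKM.

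After TWEAK the order of the levels per canonical length changed in the middle. TNFRSF10B stayed second, at 49.1 ± 6.76 RPKM, and its range then overlapped that of TNFRSF1A at 49.5 ± 4.58 RPKM. TNFRSF1B (16.9 ± 2.44 RPKM) and FAS (13.8 ± 0.939 RPKM) both stood above TNFRSF21 (8.54 ± 2.53 RPKM), which had been above them in untreated cells. TNFRSF9 remained ninth, at 1.26 ± 0.411 RPKM, and TNFRSF10A last. The plot of CPM by library shows each gene on its own scale.

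**Figure D1:**
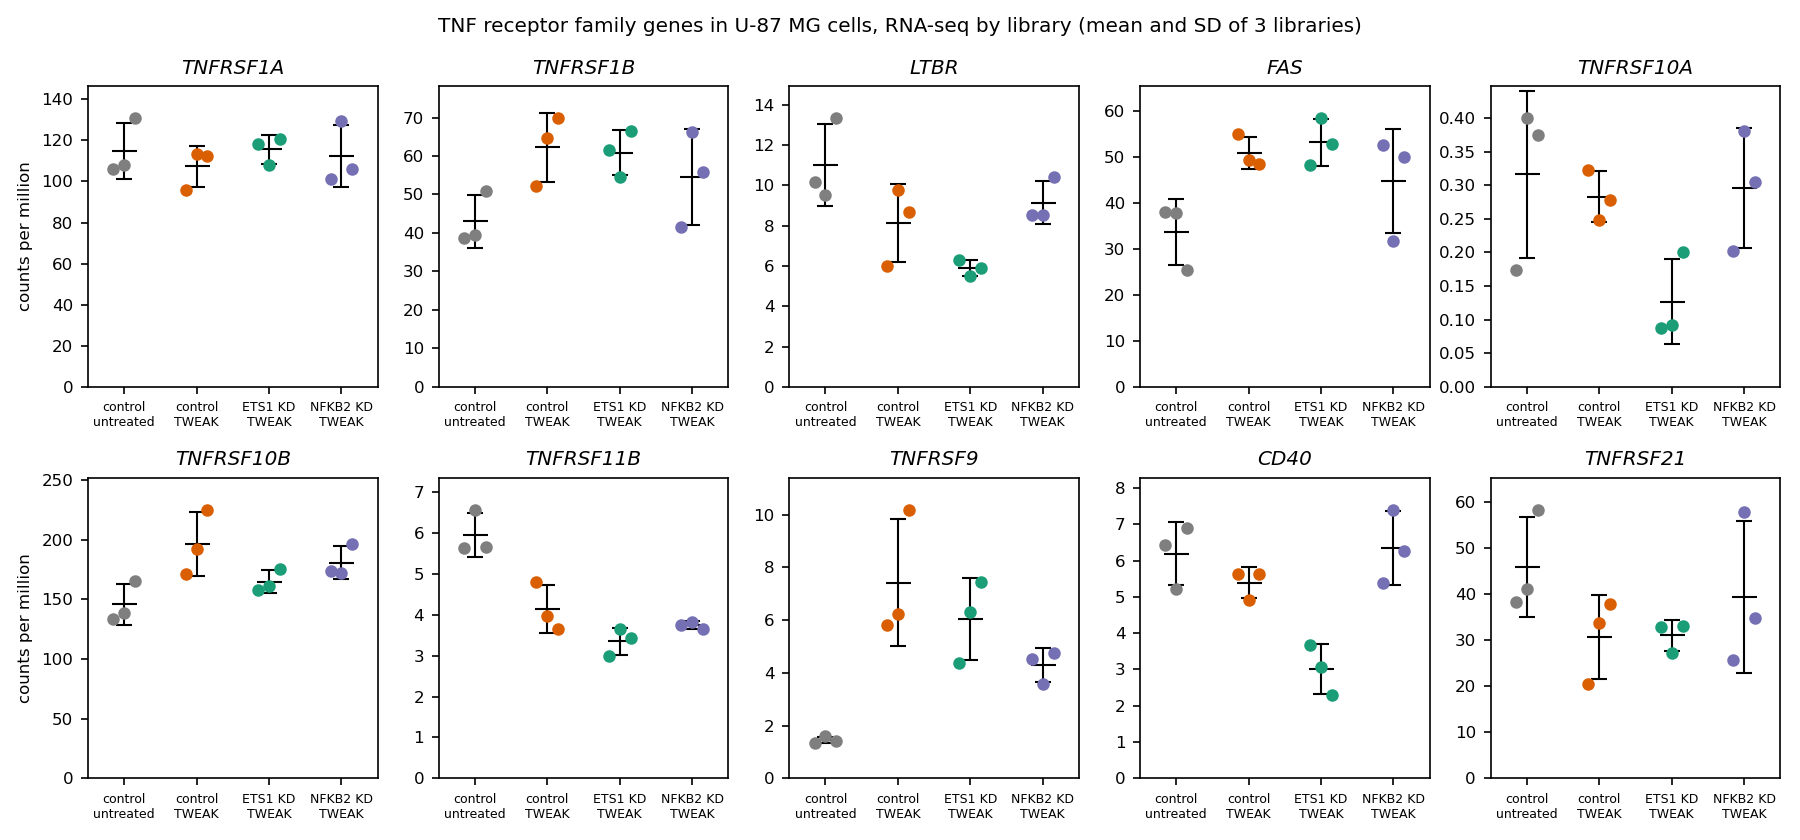
CPM (y axis, from 0) of the 10 receptor genes in the 4 RNA-seq groups (x axis), with a point for each of the 3 libraries and bars for the mean and SD. TNFRSF9 lies at 1.36 to 1.60 CPM in untreated control cells and at 5.81 to 10.2 CPM in TWEAK-treated control cells, and CD40 is lowest in ETS1 KD cells.

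The first comparison asked how TWEAK changed the receptor genes of control cells. TNFRSF9 was the only one of the 10 to pass an adjusted p of 0.05 over all genes tested, and it rose. Its level was 1.36, 1.60 and 1.41 CPM in the untreated libraries and 5.81, 6.25 and 10.2 CPM in the TWEAK-treated libraries. Every treated library was thus above every untreated one, by a wide margin. The log2 fold change was 2.35 (SE 0.26, 95% interval 1.78 to 2.92), a rise of 5.09-fold (edgeR quasi-likelihood test, adjusted p = 0.000437). The call held in all 20 alternative analyses, in which the log2 fold change lay between 2.04 and 2.49. In order of p-value TNFRSF9 ranked 33 among the 16879 genes. Across all genes 3.08% were called in this comparison, 1.55% as higher, so 1 of 10 receptors is a count that rests on TNFRSF9 alone.

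The other receptors moved less. FAS had 37.9, 37.8 and 25.3 CPM without TWEAK and 54.9, 49.4 and 48.4 CPM with it. TNFRSF10B had 133.8, 138.4 and 165.1 CPM without TWEAK and 171.6, 192.4 and 225.2 CPM with it. TNFRSF1B had 38.8, 39.4 and 51.0 CPM without TWEAK and 52.3, 64.7 and 69.8 CPM with it. In each of these genes all treated libraries lay above all untreated ones, although for TNFRSF1B and TNFRSF10B the groups were separated by little. The log2 fold changes were 0.60 for FAS (edgeR adjusted p = 0.141), 0.43 for TNFRSF10B (edgeR adjusted p = 0.0907) and 0.53 for TNFRSF1B (edgeR adjusted p = 0.149), and none passed the threshold. The calls for FAS, TNFRSF10B and TNFRSF1B depended on the analysis, since all of them passed after correction of each library for GC content and transcript length (edgeR adjusted p = 0.00188, 0.0276 and 0.00764). TNFRSF10B also passed with DESeq2 (adjusted p = 0.0349), which made a larger share of false calls than edgeR on simulated data in each comparison. Those data were drawn with edgeR's own filter and dispersion estimates, a setting that may favour edgeR, so they cannot rank the tools. FAS passed when NFKB2 KD replicate 2 was left out of the model (edgeR adjusted p = 0.0399).

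Lower values after TWEAK were seen for the decoy receptor and for TNFRSF21. TNFRSF11B had 5.63, 6.58 and 5.66 CPM in untreated and 4.81, 3.98 and 3.66 CPM in treated libraries, without overlap, for a log2 fold change of -0.52 (edgeR adjusted p = 0.0927). TNFRSF21 had 38.3, 41 and 58.3 CPM in untreated and 20.5, 33.8 and 37.9 CPM in treated libraries, again without overlap but with groups that nearly touched, for a log2 fold change of -0.58 (edgeR adjusted p = 0.389). TNFRSF21 passed without the filter on low counts (edgeR adjusted p = 0.0135), and TNFRSF11B passed with replicate block and correction together (edgeR adjusted p = 0.039). LTBR had a log2 fold change of -0.43 with overlapping groups (edgeR adjusted p = 0.305). TNFRSF1A, TNFRSF10A and CD40 differed by -0.10, -0.18 and -0.20 on the log2 scale (edgeR adjusted p = 0.821, 0.907 and 0.73), with 95% intervals of -0.37 to 0.18, -1.10 to 0.74 and -0.61 to 0.21. In all, the groups did not overlap for 4 higher and 2 lower receptors, where 11.0% and 11.5% of all genes tested had groups that did not overlap in that direction. At an unadjusted p of 0.05, 6 receptors were called against 14.7% of all genes. The median log2 fold change of the 10 receptors was -0.14, and that of all genes tested was 0.02.

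**Figure D2:**
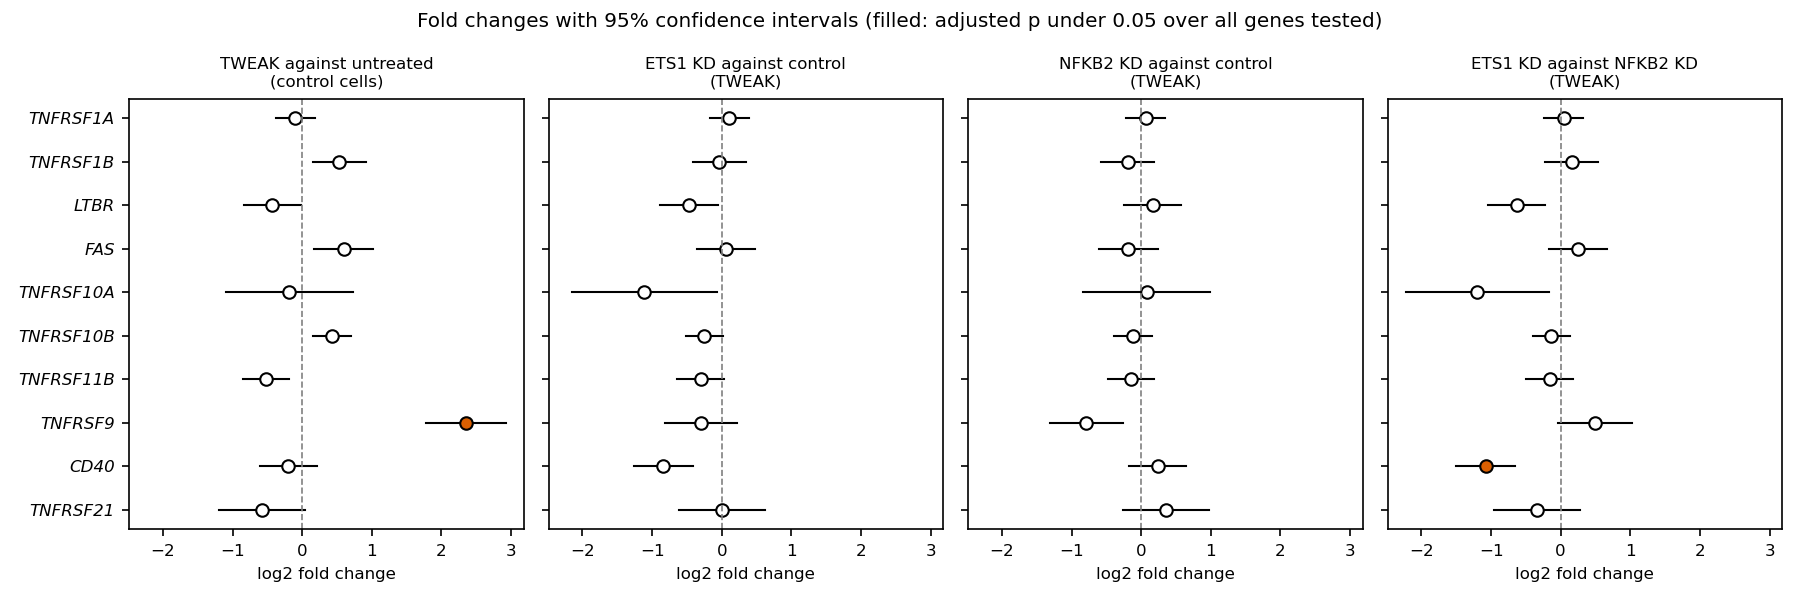
Log2 fold changes (x axis) of the 10 receptors (y axis) in the 4 comparisons, with lines for the 95% confidence intervals and filled points for an adjusted p under 0.05 over all genes tested. TNFRSF9 at 2.35 after TWEAK and CD40 at -1.08 between the KDs are the filled points.

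Genes of the same pathway give the setting of these values. Of 24 genes for receptor-proximal signalling, all of which were tested, 7 rose after TWEAK and 0 fell, where 1.55% of all genes rose. They included BIRC3 and BIRC2, which encode ubiquitin ligases bound to TRAF2, with log2 fold changes of 5.71 and 1.34. TRAF1, an adaptor that binds TRAF2, changed by 3.06, and MAP3K14, which encodes NIK, by 1.57. TRAF3, TRAF2 and CFLAR, an inhibitor of caspase-8, rose by 0.95, 0.91 and 0.66 (edgeR adjusted p between 2.92e-05 and 0.0156 for the 7 genes). Some of these calls rested on single libraries: that of BIRC2 was lost without TWEAK replicate 3 (edgeR adjusted p = 0.0527), those of MAP3K14 and CFLAR were lost without untreated replicate 1 (0.086 and 0.0518), untreated replicate 2 (0.0906 and 0.0562) or TWEAK replicate 3 (0.0714 and 0.0604), and that of MAP3K14 also without TWEAK replicate 2 (0.0709). The median log2 fold change of the 24 genes was 0.10. Of 18 ligands of the family, 8 were tested and 2 rose, against the same 1.55% of all genes. They were TNFSF10, encoding TRAIL, the ligand of TNFRSF10A and TNFRSF10B, by 1.70 (edgeR adjusted p = 0.00707), and CD70 by 0.71 (edgeR adjusted p = 0.00836). TNFSF10 had few reads, 7 to 11 a library without TWEAK and 27 to 41 with it. The call of CD70 was lost without untreated replicate 1 (edgeR adjusted p = 0.0514), untreated replicate 2 (0.069), TWEAK replicate 2 (0.0535) or TWEAK replicate 3 (0.0637). The median over the 8 ligands was 0.21. Of 19 further receptors of the family, 10 were tested, 0 were called by edgeR and 3 had an unadjusted p under 0.05, where 14.7% of all genes did, with a median of 0.10.

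**Figure D3:**
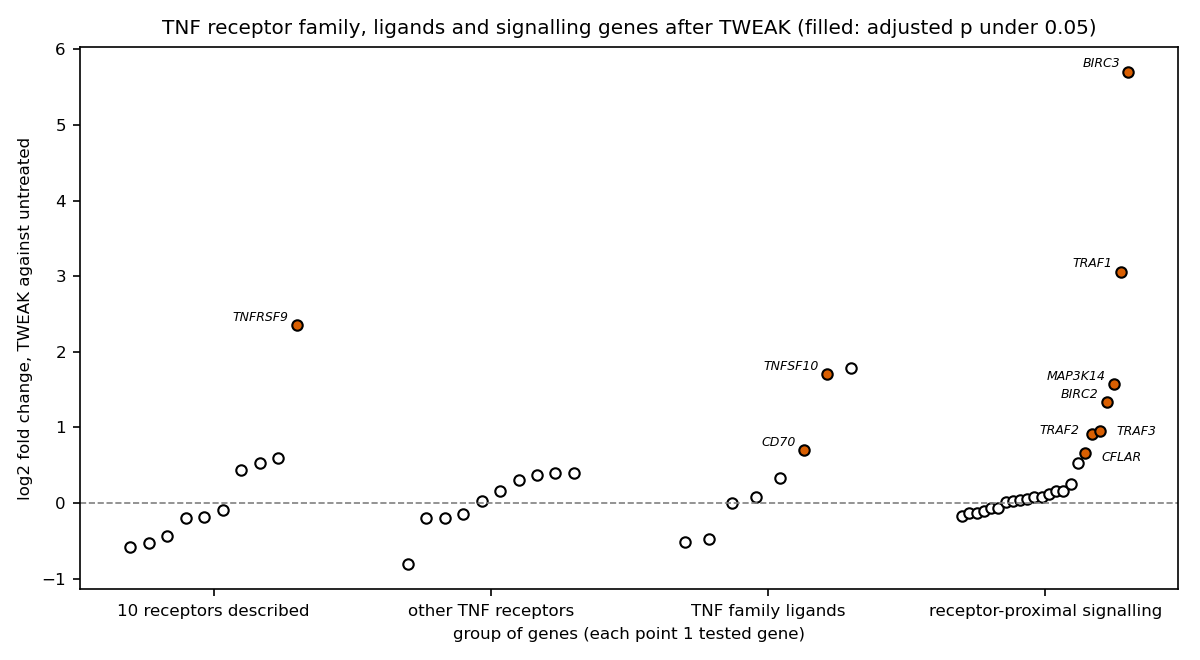
Log2 fold change after TWEAK (y axis) of each tested gene in 4 groups of genes (x axis), with filled and named points for an adjusted p under 0.05. BIRC3 at 5.71 and TRAF1 at 3.06 lie above TNFRSF9 at 2.35, and no gene of these groups that fell passed the threshold.

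The profile of TNFRSF9 over the 12 RNA-seq libraries was most like those of ZNF697, CXCL5, which encodes a chemokine, and BIRC3, with Pearson correlations of log2 CPM of 0.985, 0.972 and 0.967 among 12076 genes compared. The 12 libraries fall into treated and untreated groups and are not independent points, so these values are a description.

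The second comparison asked how ETS1 KD changed the receptors in the presence of TWEAK. None of the 10 passed the threshold with edgeR, where 1.39% of all genes did, and 3 had an unadjusted p under 0.05, all lower in the KD, against 12% of all genes in either direction. CD40 came closest. It had 5.63, 4.90 and 5.64 CPM in control cells and 3.67, 3.07 and 2.29 CPM in ETS1 KD cells. All 3 KD libraries were below all control libraries. The log2 fold change was -0.84 (SE 0.20, 95% interval -1.26 to -0.42, edgeR adjusted p = 0.0569). With DESeq2, which had the larger share of false calls on data simulated from edgeR's estimates, the adjusted p of CD40 was 0.00699. With correction for GC content and length it was 0.0287 in edgeR, so the call of CD40 in this comparison is a matter of the analysis. It was also called when NFKB2 KD replicate 2 was left out of the model (edgeR adjusted p = 0.0366). The summed level of 3 epithelial markers (EPCAM, KRT8 and CDH1) moved the same way, with 2.36 to 3.30 CPM in control and 1.40 to 2.02 CPM in ETS1 KD cells, while CDH1 did not exceed 0.122 CPM in any library, and their part in the CD40 result was not tested. EPCAM overlapped between these groups (1.22 to 2.05 and 0.744 to 1.29 CPM), and KRT8 did not (1.055 to 1.195 and 0.658 to 0.797 CPM). Summed endothelial markers (2.44 to 3.22 and 2.67 to 4.57 CPM) and leukocyte markers (0.174 to 0.538 and 0.0613 to 0.286 CPM) overlapped. Within the endothelial sum, the mean of PECAM1 was lower in ETS1 KD cells (0.815 against 1.16 CPM) and that of VWF higher (2.49 against 1.64 CPM). The glioma marker OLIG2 was lower without overlap, at 1.00 to 1.52 CPM in control and 0.528 to 0.920 CPM in ETS1 KD cells. Of the 5 glioma markers tested, 4 had positive log2 fold changes, and the part of OLIG2 was not tested. The samples were U-87 MG cells, and low levels of epithelial, endothelial and leukocyte markers do not show that other cell types were present. In bulk RNA, fewer cells that express a gene and less RNA per cell cannot be told apart.

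LTBR had 5.99, 9.76 and 8.66 CPM in control cells and 6.31, 5.52 and 5.89 CPM in ETS1 KD cells, so that control replicate 1 lay among the KD libraries (log2 fold change -0.47, edgeR adjusted p = 0.335). TNFRSF10A had 9 to 10 reads a library in control cells and 3 to 7 reads in ETS1 KD cells (log2 fold change -1.12, edgeR adjusted p = 0.371). TNFRSF9 had 4.37, 6.31 and 7.44 CPM in ETS1 KD cells, within reach of its control range, with a log2 fold change of -0.30 (95% interval -0.81 to 0.22, edgeR adjusted p = 0.746). The remaining receptors had log2 fold changes between -0.30 and 0.11 with adjusted p-values of at least 0.454. The groups did not overlap for CD40, TNFRSF10A and TNFRSF11B, all lower, where 10.8% of all genes had groups that did not overlap in that direction. The median of the 10 was -0.28, and that of all genes was 0.01.

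Among the other lists, TNFRSF14, which encodes the herpesvirus entry mediator, fell by 0.98 on the log2 scale (edgeR adjusted p = 0.00804), and TNFSF9, the ligand of TNFRSF9, rose by 0.62 (edgeR adjusted p = 0.0232). TNFSF9 had 21.9, 24.1 and 22.6 CPM in control cells and 36.1, 31.3 and 38.0 CPM in ETS1 KD cells, without overlap. Its call was lost without control replicate 1, 2 or 3 (edgeR adjusted p = 0.097, 0.0796 and 0.102) and without ETS1 KD replicate 1 or 3 (0.105 and 0.152), and that of TNFRSF14 without control replicate 2 (0.0526) or ETS1 KD replicate 2 or 3 (0.0532 and 0.0598). None of the 24 signalling genes was called by edgeR in this comparison, and 1 had an unadjusted p under 0.05.

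The third comparison set NFKB2 KD cells against control cells, both with TWEAK, and shares its control libraries with the second. None of the 10 receptors passed the threshold with edgeR, where 0.0296% of all genes did, and none passed with DESeq2. TNFRSF9 alone had an unadjusted p under 0.05, where 3.91% of all genes reached that level in either direction and 3.82% had KD groups wholly below the control. It had 4.55, 3.56 and 4.77 CPM in NFKB2 KD cells against 5.81, 6.25 and 10.2 CPM in control cells. The KD libraries were all below the control libraries and all above the untreated libraries. The log2 fold change was -0.79 (SE 0.24, 95% interval -1.31 to -0.27, unadjusted p = 0.0062 and adjusted p = 0.813 in edgeR). The other receptors had log2 fold changes between -0.19 and 0.36, and FAS, TNFRSF1B and TNFRSF21 varied widely among the NFKB2 KD libraries, with replicate 2 lowest for FAS at 31.7 CPM and highest for TNFRSF21 at 57.7 CPM. Of the signalling genes TRAF1 was called, with 64.2, 83.1 and 143.9 CPM in control and 19.8, 19.2 and 29.9 CPM in NFKB2 KD cells. Its log2 fold change was -2.08 (edgeR adjusted p = 0.0392), and the call was lost without any of 9 of the 12 libraries, where the adjusted p lay between 0.0617 and 0.261, and with the fit to these groups alone (0.22). The other 23 signalling genes, 8 ligands and 10 further receptors were not called.

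The fourth comparison set the KDs against each other. CD40 was the only receptor called. ETS1 KD cells had 3.67, 3.07 and 2.29 CPM and NFKB2 KD cells 5.39, 7.40 and 6.26 CPM, so that the groups were fully apart. The log2 difference was -1.08 (SE 0.19, 95% interval -1.50 to -0.66, edgeR adjusted p = 0.0136), which is a level 2.11-fold lower in ETS1 KD cells. The call was lost without ETS1 KD replicate 2 (edgeR adjusted p = 0.0597) or ETS1 KD replicate 3 (0.0826) and with the fit to these groups alone (0.0682). The summed epithelial markers also lay lower in ETS1 KD cells, at 1.40 to 2.02 CPM against 2.37 to 3.31 CPM in NFKB2 KD cells, and their part in the CD40 difference was not tested. Summed endothelial markers (2.67 to 4.57 and 3.16 to 4.03 CPM) and leukocyte markers (0.0613 to 0.286 and 0.261 to 0.435 CPM) overlapped between the KDs. The glioma marker OLIG2 was lower in ETS1 KD cells without overlap (0.528 to 0.920 against 1.22 to 1.73 CPM). Of the 5 glioma markers tested, 3 had positive log2 differences, and the part of OLIG2 was not tested. Among all genes 1.94% were called, 1.4% as lower in ETS1 KD cells. At an unadjusted p of 0.05 there were 3 receptors, LTBR, TNFRSF10A and CD40, where 15.5% of all genes reached that level, and the same 3 had groups wholly lower in ETS1 KD cells, where 9.22% of genes did. LTBR differed by -0.63 without overlap between the groups (edgeR adjusted p = 0.122), and passed with DESeq2 (adjusted p = 0.042). TNFRSF9 was not separated, with a log2 difference of 0.49 (95% interval -0.03 to 1.02, edgeR adjusted p = 0.352).

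At the thresholds of the study (a fold of 1.5 or more with an unadjusted p up to 0.05), 2 receptors were called after TWEAK, 2 in ETS1 KD, 1 in NFKB2 KD and 3 between the KDs. The shares of all genes called at these thresholds were 7.09%, 5.67%, 2.25% and 7.37%.

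The p52 peak lists were read at each receptor gene. A site here is a region with a peak in both libraries of a group, and it was assigned to a gene when a summit lay within 15 kb of an annotated start site. The values of a peak are the fold enrichment and -log10 q that the authors' peak caller gave, each relative to its own library, so that they are given side by side and not tested. In untreated control cells no receptor had a p52 peak in either library, and 0.0652% of all genes tested had a site. With TWEAK, TNFRSF9 was the only receptor with a site in both libraries, where 11.6% of all genes tested had one. The lists differ in length, with 3579 peaks in replicate 1 and 11761 in replicate 2, and a peak in either library was found at 6 receptors, where 35.4% of all genes had one. Of the 5 others, TNFRSF1A, TNFRSF1B, FAS and TNFRSF10B had their peaks in replicate 2 and TNFRSF21 in replicate 1.

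At TNFRSF9, on the minus strand of chromosome 1, the p52 summits lay 68 and 84 bp upstream of the canonical start at 7940839. This is outside the canonical transcript but within an exon of another annotated TNFRSF9 transcript. The fold enrichment was 7.43 in replicate 1 and 12.4 in replicate 2, with -log10 q of 12 and 35.1. The peak ranked 1718 of 3579 and 2165 of 11761, in the middle of the first list and in the upper part of the second. The summit of replicate 1 lay inside, and that of replicate 2 lay 10 bp upstream of, the sequence GGGAATTTCCC shown above. That sequence holds 2 overlapping matches to the κB consensus, 1 on each strand. A match to TGANTCA, the AP-1 consensus, starts at 7940877, outside the printed stretch but within the 200 bp around each summit. In a window of 200 bp around the summit, κB matches were present at 72.4% of all p52 sites of TWEAK-treated cells and TGANTCA at 24.1%. Among RefSeq promoters (GRCh38.p14, from 250 bp before to 50 bp after a start), 5.91% held a κB match and 7.71% held TGANTCA.

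TNFRSF9 had a further p52 site with summits 37776 and 37772 bp downstream of its nearest start site, and no protein-coding start was closer to it. The summits lay at 7897324 and 7897328, inside or beside the κB match GGGACTTTCC of the second sequence shown above, and the fold enrichment was 8.51 and 22.5. No annotated gene overlaps that stretch.

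In ETS1 KD cells the p52 peaks at these TNFRSF9 sites differed from each other. The downstream site had a peak in all 4 ETS1 KD libraries with TWEAK, with a fold enrichment of 9.99 and 23.9 for guide 1 and 10.7 and 12.4 for guide 2. The peak at the start site was listed in 1 of the 4, which was guide 1 replicate 2 (fold enrichment 9.54). For guide 2, whose lists held 4252 and 3938 peaks, neither library had it. A peak that is not listed may lie just under the threshold of the peak caller, and the depth of these libraries is unknown.

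FAS differed from TNFRSF9 in which libraries held a peak. With positions relative to its canonical start at 88990798 on chromosome 10, a p52 peak at -629 and -662 bp was listed in both guide 2 libraries (fold enrichment 12 and 4.82) and one at -651 bp in TWEAK-treated control replicate 2 (7.06), with none in either guide 1 library. The stretch lies outside the canonical FAS transcript, in an exon of other FAS transcripts and of the overlapping gene ENSG00000286116. The 200 bp around each of these summits held no κB match and no TGANTCA. With guide 2, FAS was the only receptor with a site, where 11.8% of all genes had one, and with guide 1 no receptor had one, where 5.09% of genes did. The FAS site was not kept at a -log10 q of 5.

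At the other receptors, p52 peaks at TNFRSF1B lay 9525 bp upstream of its start in control replicate 2 and 9511 bp upstream in guide 1 replicate 2, with fold enrichments of 9.88 and 6.96. Those at TNFRSF10B in control replicate 2 lay in intron 1 and upstream, with fold enrichments between 6.29 and 9.40. Each of these TNFRSF10B peaks held a κB match in the 200 bp around its summit, and those at TNFRSF1B held none. Farther away, a p52 site of TWEAK-treated control cells lay 28315 bp from the nearest TNFRSF10B start but 229 bp from that of RHOBTB2 (fold enrichment 8.04 and 15.3). It was also a site with each ETS1 KD guide. LTBR, TNFRSF10A, TNFRSF11B and CD40 had no p52 peak within 15 kb in any of the 8 libraries.

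ETS1 sites in both libraries lay at other receptors than the p52 site of TNFRSF9. With a peak in either library the sets overlapped, since TNFRSF1B, FAS, TNFRSF10B and TNFRSF21 had peaks of p52 and of ETS1. FAS had an ETS1 peak 210 bp downstream of its start in untreated replicate 1 alone (fold enrichment 4.7). TNFRSF10B had ETS1 peaks in TWEAK-treated replicate 1 alone, with a fold enrichment of at most 3.55. In untreated control cells ETS1 sites were found at TNFRSF1B, TNFRSF11B and TNFRSF21, where 8.27% of all genes tested had one. At TNFRSF21 the summits lay 368 and 235 bp downstream of the start, in exon 1, with fold enrichments of 15.1 and 5.91. At TNFRSF11B they lay 79 and 14 bp downstream, also in exon 1, with fold enrichments of 8.97 and 6.62. At TNFRSF1B they lay 227 and 224 bp downstream, in intron 1, with fold enrichments of 5.39 and 5.58. Within 200 bp around these summits, TNFRSF1B and TNFRSF21 held neither CCGGAAG nor AGGAAG. TNFRSF11B held AGGAAG around the summit of replicate 2 alone. Of all ETS1 sites in untreated cells, 5.37% held CCGGAAG and 17.3% held AGGAAG within the window of 200 bp, on either strand. RefSeq promoters, in their longer window, held them more often, at 10.3% and 33.6%.

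With TWEAK, TNFRSF11B (9.75 and 7.83) and TNFRSF21 (12.2 and 9.05) had ETS1 peaks in both libraries, where 11.3% of all genes had a site. At TNFRSF21 the summit lay 360 bp downstream of the start in replicate 1, and replicate 2 had no summit within 1 kb of the start. TNFRSF1B had a peak in replicate 1 alone (6.23). CD40, which was lower in ETS1 KD than in NFKB2 KD cells, had no ETS1 peak within 15 kb in any of the 4 libraries, and neither had TNFRSF9, LTBR or TNFRSF10A. ETS1 ChIP was not analysed in KD cells.

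**Figure D4:**
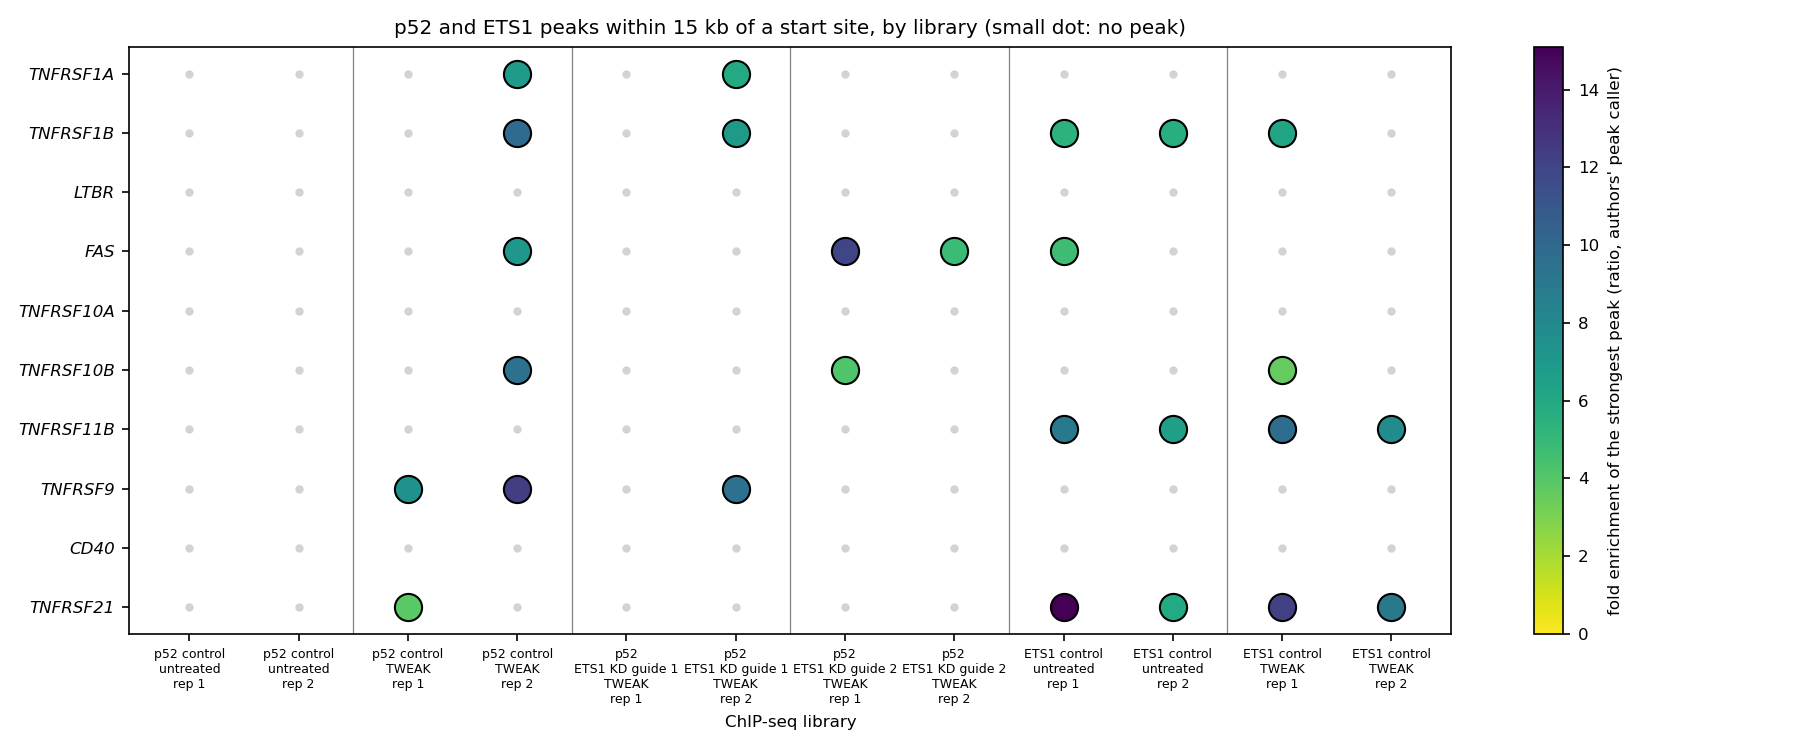
Strongest p52 or ETS1 peak within 15 kb of a start site of each receptor (y axis) in each ChIP-seq library (x axis), coloured by the fold enrichment of the authors' peak caller, with a small dot for no peak. TNFRSF9 is the receptor with p52 peaks in both TWEAK-treated control libraries, at 7.43 and 12.4, and TNFRSF11B and TNFRSF21 have ETS1 peaks in all 4 ETS1 libraries.

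RNA Pol II was read in the 8 libraries that carry it, in the window of 1 kb on either side of the canonical start. TNFRSF10B had the strongest peak of these receptors in every library. Its fold enrichment was 15.8 and 35.2 in untreated control cells, 61.6 and 44 with TWEAK, 25.0 and 22.2 in ETS1 KD cells and 38.3 and 16.1 in NFKB2 KD cells. Both TWEAK-treated control libraries were above the other 6. By rank within its list the peak was not set apart in this way. It stood in the top 0.969% and 1.14% of peaks with TWEAK. In the other 6 it stood between 1.13% (NFKB2 KD replicate 1) and 4.03% (NFKB2 KD replicate 2). Peaks covered 23.5% and 27.3% of the TNFRSF10B gene in untreated cells, 74.8% and 38.3% with TWEAK, 22.7% and 16.5% in ETS1 KD and 27.2% and 4.8% in NFKB2 KD cells. Covered length depends on how much was called in a library, and the lists held between 11175 peaks (NFKB2 KD replicate 2) and 44672 peaks (control TWEAK replicate 1), the libraries with the lowest and highest coverage of this gene. No test was run on these values, which are scaled within each library.

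TNFRSF1B also had its highest values with TWEAK, with fold enrichments of 5.46 and 10.8 in untreated, 20.3 and 13.3 in TWEAK-treated, 7.31 and 9.88 in ETS1 KD and 12.1 and 6.36 in NFKB2 KD cells, so that both TWEAK-treated control libraries were above the other 6. By rank the margin was slim, with the peak in the top 4.36% and 8.51% with TWEAK and 8.55% in NFKB2 KD replicate 1. At TNFRSF21 the values were 6.59 and 12.5 in untreated and 15.2 and 8.28 in TWEAK-treated cells, which overlap. ETS1 KD replicate 1 had a peak of 6.5 there and replicate 2 had none. FAS had a start-site peak in 1 of 2 libraries in untreated, TWEAK-treated and ETS1 KD cells and in both NFKB2 KD libraries, at 4.46 to 6.82 in all, and TNFRSF1A in 4 of the 8 libraries.

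TNFRSF9, CD40 and TNFRSF10A had no RNA Pol II peak within 1 kb of the start in any library, so the rise of TNFRSF9 RNA after TWEAK was not accompanied by a listed RNA Pol II peak at its start. The sites within 15 kb of TNFRSF9 lay next to the start of its neighbour PARK7. Sites in both libraries within 15 kb were found at 6 receptors in untreated, TWEAK-treated and NFKB2 KD cells and at 4 in ETS1 KD cells, where 57.5%, 67.9%, 52.9% and 60.1% of all genes tested had one.

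**Figure D5:**
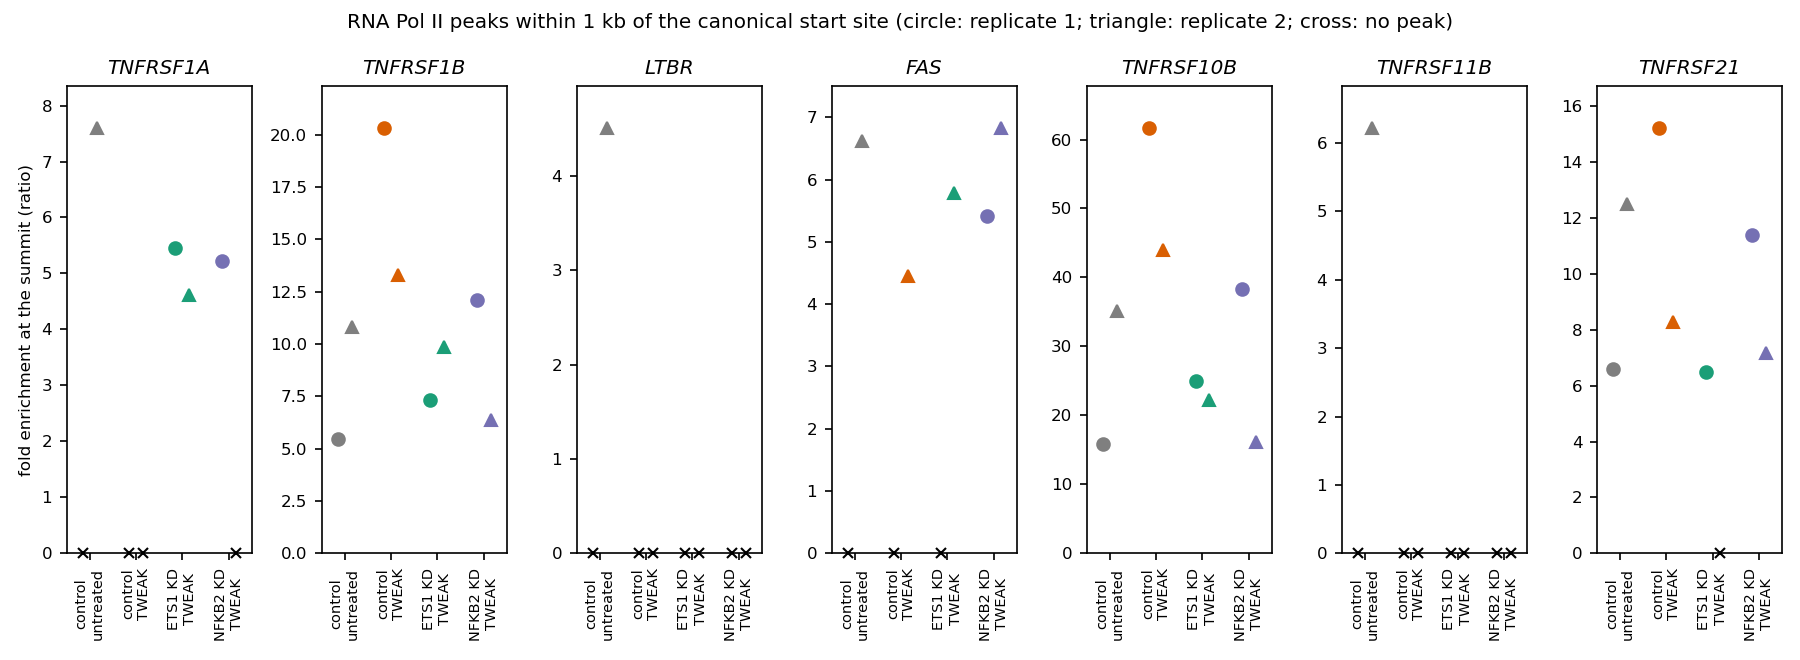
Fold enrichment of the RNA Pol II peak within 1 kb of the canonical start (y axis, from 0, a scale for each gene) in the 4 groups (x axis) for the 7 receptors with such a peak in any library, with circles for replicate 1, triangles for replicate 2 and crosses for no peak. TNFRSF10B reaches 61.6 and 44 and TNFRSF1B 20.3 and 13.3 in TWEAK-treated control cells.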

How the data were processed

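The data were 12 RNA-seq libraries of U-87 MG cells and 20 ChIP-seq libraries for p52, ETS1 or RNA Pol II. No use was made of 3 input samples. RNA-seq reads were processed by the authors with STAR, hg38 and featureCounts, and the authors deposited raw counts per gene. Versions, annotation release and strand setting are not given in the sources used here, so reads of overlapping opposite-strand genes could be mixed (9.43% of canonical TNFRSF10B and 13.4% of TNFRSF10A bases are shared). The authors called ChIP-seq peaks per library with Bowtie2 and MACS2 with input subtraction, and deposited the fold enrichment ratio and −log10 p- and q-values. The ChIP-seq depth is unknown.

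Gene symbols, starts and transcript lengths came from GENCODE release 44, which holds 62625 of the 62649 distinct identifiers. The 12 RNA-seq libraries were fitted together with edgeR 4.0.16 in R 4.3.3 (filterByExpr, TMM, quasi-likelihood F-test, 4 groups, no covariate, Benjamini-Hochberg adjustment over 16879 genes). Genes were called at an adjusted p under 0.05. CPM used TMM-scaled totals, and log2 CPM for correlations a prior count of 2. DESeq2, the authors' tool, served as an alternative (version 1.42.0). Between 28384201 and 40192606 counts per library set the precision, and without molecular identifiers counting error is a lower bound. No replicates were as alike as sampling noise. Both tools were tested on simulated data, where DESeq2 made a larger share of false calls. Those data were drawn with edgeR's filter and dispersion estimates, which may favour edgeR. Peaks of replicates that shared at least 1 bp formed a site. Motifs were searched on both strands in 200 bp around a summit. Sequences were read from hg38 with samtools 1.23.1. The table has 0 rows without a gene and 0 unused value columns.

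The members and lists were chosen with earlier results of these data known. All 10 members were described in each comparison, with, from each list of pathway genes, up to 4 called genes of the largest fold change per comparison, and the 3 genes whose profile over 12 libraries was closest to a receptor called after TWEAK. TRAF3, TRAF2 and CFLAR, outside this rule, were named after their values were seen. The alternatives were DESeq2, RLE size factors, no filter, a replicate block, a fit of the groups compared alone, the study's thresholds (unadjusted p of at most 0.05, fold of at least 1.5), GC content and length correction (loess span 0.3) with and without the block, leaving out each library, and other windows and thresholds for peaks.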

Additional observations from a re-analysis of the deposited data

Results flagged for a closer look

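The effects of the KDs on CD40 differed by -1.08 on the log2 scale (ETS1 KD minus NFKB2 KD, edgeR adjusted p = 0.0136), with CD40 lower in 3 of 3 ETS1 KD libraries. The summed epithelial markers were lower as well, at 1.40 to 2.02 CPM against 2.37 to 3.31 CPM in NFKB2 KD cells, and their part was not tested. Summed endothelial and leukocyte markers overlapped between the KDs. The glioma marker OLIG2 was lower too (0.528 to 0.920 against 1.22 to 1.73 CPM), while 3 of 5 glioma markers tested had positive log2 differences. The same test of the difference was passed by TNFRSF14 at -0.78 (edgeR adjusted p = 0.0304), TRAF2 at 0.46 (0.0242) and BIRC3 at 1.86 (0.0154). BIRC3 had 114.6, 217.3 and 207.6 CPM in ETS1 KD and 57.0, 26.3 and 65.1 CPM in NFKB2 KD cells. ETS1 and NFKB2, the targeted genes, differed by -0.87 and 1.39 (edgeR adjusted p = 0.0102 and 0.00233). The calls of CD40, TNFRSF14 and BIRC3 were lost without ETS1 KD replicate 2 (edgeR adjusted p = 0.0597, 0.134 and 0.0629) or ETS1 KD replicate 3 (0.0826, 0.154 and 0.077), that of TNFRSF14 also without NFKB2 KD replicate 2 (0.0754) or 3 (0.0953), and that of TRAF2 without any of 9 libraries (0.0524 to 0.132). Groups of 2 or 3 libraries were not screened for single libraries that stand apart.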

How the results depend on the processing

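The number of receptors called after TWEAK was 1 and became 2 with DESeq2, 3 without a filter, 2 with the replicate block, 2 at the study's thresholds, 4 with GC content and length correction and 5 with both block and correction, and 1 to 2 with 1 library left out (2 without NFKB2 KD replicate 2). For ETS1 KD it was 0 and became 1 with DESeq2, without a filter, with the correction and with block and correction, 2 at the study's thresholds, and 0 to 1 with 1 library left out (1 without NFKB2 KD replicate 2). For NFKB2 KD it was 0 and became 1 at the study's thresholds. Between the KDs it was 1 and became 2 with DESeq2, without a filter, with the correction and with block and correction, 3 at the study's thresholds, 0 with the compared groups alone, and 0 to 1 with 1 library left out. The cause of these shifts was not tested. Same-numbered libraries did not all deviate together (correlations from -0.304 to 0.492 over 18 pairs, 9 of them above 0.1 and 7 below zero, and 5 of 12 libraries closest to their own number), although those numbered 3 were all positively correlated, so the numbers were not taken as a pairing. With the replicate block TNFRSF10B passed after TWEAK (edgeR adjusted p = 0.0165). The block moved the genes called from 520 to 657 after TWEAK, 234 to 252 for ETS1 KD, 5 to 4 for NFKB2 KD and 327 to 361 between the KDs.

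Counts over all genes changed by more than 1.5 times with DESeq2 (876, 476, 35 and 760, in the same order), without a filter (859, 469, 87 and 781), with the correction (962, 500 and 836, and 5 for NFKB2 KD), with block and correction (1460, 758, 17 and 1425), at the study's thresholds (1197, 957, 379 and 1244) and with the compared groups alone (2 for NFKB2 KD and 104 between the KDs). With 1 library left out the counts ranged from 171 (without TWEAK replicate 3) to 972 (without NFKB2 KD replicate 2) after TWEAK, 102 (without ETS1 KD replicate 3) to 391 (without NFKB2 KD replicate 2) for ETS1 KD, 2 to 4 for NFKB2 KD, and 76 (without ETS1 KD replicate 3) to 561 (without NFKB2 KD replicate 1) between the KDs. For ETS1 KD, 43 higher and 191 lower genes became 141 and 335 with DESeq2, 192 and 308 with the correction and 358 and 400 with block and correction. Between the KDs, 90 and 237 became 267 and 493, 384 and 452, and 777 and 648.

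Receptors with a p52 site in TWEAK-treated control cells numbered 1, or 6 with a peak in either library, 2 within 50 kb, 0 with equal numbers of the strongest peaks and 2 to 5 with a single library. For ETS1 with TWEAK, 2 became 4 with either library and 2 to 4 with a single one. For p52 with guide 1, 0 became 3 with either library, 2 within 50 kb and 0 to 3 with a single one. For guide 2, 1 became 2 with either library, 4 within 50 kb, 0 at a -log10 q of 5, 0 with equal numbers and 1 to 2 with a single one. For RNA Pol II, 6 in untreated cells became 3 at a -log10 q of 5, and 4 in ETS1 KD cells became 8 within 50 kb.

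No call changed direction. Uncalled log2 differences changed sign with 1 library left out. After TWEAK, TNFRSF1A lay between -0.157 and 0.0103 and TNFRSF10A between -0.464 and 0.0154. In ETS1 KD, TNFRSF1B lay between -0.145 and 0.0516, FAS between -0.0168 and 0.12 and TNFRSF21 between -0.21 and 0.18, with -0.0039 for TNFRSF21 in the compared groups alone. In NFKB2 KD, TNFRSF1A lay between -0.0505 and 0.16, LTBR between -0.011 and 0.33, FAS between -0.30 and 0.0114, TNFRSF10A between -0.15 and 0.31, TNFRSF10B between -0.21 and 0.0128 and TNFRSF21 between -0.0255 and 0.62. Between the KDs, TNFRSF1A lay between -0.064 and 0.16, TNFRSF1B between -0.0414 and 0.32 and TNFRSF21 between -0.62 and 0.036.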

Other observations

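TNFSF10, which encodes TRAIL, had 0.348, 0.338 and 0.219 CPM in untreated control cells (7 to 11 reads a library) and 0.969, 1.02 and 0.972 CPM with TWEAK (27 to 41 reads). It had 0.499, 0.399 and 0.629 CPM in ETS1 KD and 0.347, 0.408 and 0.456 CPM in NFKB2 KD cells, all below the TWEAK-treated control libraries. Neither KD difference passed the threshold (log2 fold change -0.95 with edgeR adjusted p = 0.127, and -1.28 with edgeR adjusted p = 0.319). TNFRSF14 had 11.4, 13.8 and 12.6 CPM in control cells and 7.57, 5.52 and 6.06 CPM in ETS1 KD cells with TWEAK, without overlap.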
